A study of Mus musculus with 8 samples.

Results

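Matrix metalloproteinases (MMPs), ADAMTS proteases and tissue inhibitors of metalloproteinases (TIMPs) were followed through the differentiation of mouse embryonic stem cells toward cardiomyocytes. The members are the protein-coding genes whose symbols are *Mmp*, *Adamts* or *Timp* with a number, which gave 45 genes of the 21936 protein-coding genes and 55487 genes in all. They comprise 22 *Mmp*, 19 *Adamts* and 4 *Timp* genes. Total RNA of J-1 male mouse embryonic stem cells of the 129S4/SvJae strain was sequenced at day 0 (ESC), day 4 (MES, mesoderm), day 6 (CP, cardiac progenitor) and day 10 (CM, cardiomyocyte), with 2 libraries for each stage. ESC were untreated and grown with leukemia inhibitory factor, whereas MES, CP and CM came from embryoid bodies, formed in hanging drops in medium with serum. The bodies were then plated on gelatin in medium with serum and ascorbic acid. Stage and medium therefore cannot be told apart in any comparison with ESC. All 8 libraries come from this cell line. The authors state that patches of contracting cells were collected at given time points, without naming the stages. The samples can still hold several cell types.

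MMPs are zinc-dependent proteases that cut collagens, gelatin, laminins and many other proteins outside the cell. They are made as inactive precursors, and some are secreted while others are anchored in the cell membrane. ADAMTS proteases are secreted, and their main branches cut proteoglycans such as versican, trim the ends of procollagens or act on the microfibrils around cells. TIMPs bind the active site of MMPs, and TIMP3 also blocks several ADAMTS proteases. In the heart, matrix proteases are known for clearing the cardiac jelly, an early matrix rich in versican, and for shaping valves and vessels.

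Levels are given as TPM (a count divided by gene length and scaled to the same total in every library), always with replicate 1 before replicate 2. Stages were compared on the raw counts with edgeR's quasi-likelihood test across all 20071 genes that passed its filter on low counts. A gene was called, and is said to have risen or fallen, where its adjusted p was under 0.05 and its fold change above 2 or under 0.5, and the log2 fold changes below come from this fit with their standard error (SE). The total counts were between 18046063 and 19728777. The replicates of CM differed more from each other (mean chi-square per gene 33.2) than those of ESC, MES and CP (3.71 to 6.40), while the fit gives each gene the same spread at every stage. Summed over marker genes of each cell type, pluripotency markers had between 62.0 and 199.8 TPM in the later libraries, against 6595 and 6556 TPM in ESC, and early mesoderm markers were highest in MES, with 561 and 551 TPM. Cardiomyocyte markers summed to 542 and 1459 TPM in CM and 1228 and 1857 TPM in CP. Markers of smooth muscle and fibroblasts summed to 16523 and 10519.6 TPM in CM and 8729.9 and 10093 TPM in CP, so the CM libraries carry more RNA of these markers than of the cardiomyocyte markers. Markers of macrophages and other white blood cells summed to 503 and 544 TPM in CM and 37.7 and 43.4 TPM in CP. Erythroid markers had 2.61 and 2.41 TPM in ESC, then 205 and 388 (MES), 4960.3 and 4995 (CP) and 103 and 100.2 (CM), and all 8 of them fell in CM against CP. Markers of visceral and parietal endoderm had 193 and 193 TPM in ESC, then 514 and 547 (MES), 1760.2 and 2069 (CP) and 3588 and 2959 (CM), with 8 of 8 higher in CM than in ESC. Of this sum, *Sparc* alone gave 144 and 148 TPM in ESC and 2871 and 1925 TPM in CM, while *Ttr*, *Apoa1* and *Apoa4* had no count in ESC. Endothelial markers had 68.3 and 69.1 TPM in ESC, then 99.3 and 119 (MES), 437 and 455 (CP) and 201 and 139 (CM), with 5 of 8 higher in CP than in MES and 6 of 8 lower in CM than in CP. Of all genes tested, 10.8% were called higher in CP than in MES, 2.65% lower in CM than in CP and 29.8% higher in CM than in ESC. The part of these cell types in the results below was not tested.

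As families, the proteases and their inhibitors were lowest in ESC. The *Mmp* and *Timp* sums were highest in CM, whereas the *Adamts* sums of CP and CM overlapped. The *Mmp* genes together had 91.6 and 86.3 TPM in ESC, then 263 and 291 (MES), 504 and 469 (CP) and 862 and 815 (CM). The *Adamts* genes had 44.8 and 43.6 TPM in ESC, then 193 and 228 (MES), 567 and 614 (CP) and 614 and 616 (CM), so their sum was close to level between CP and CM. The *Timp* genes had 48.3 and 47.7 TPM in ESC, then 67.2 and 68.8 (MES), 186 and 195 (CP) and 365 and 338 (CM), and most of their increase came after MES. The balance between inhibitors and proteases therefore differed by stage. The ratio of summed *Timp* TPM to summed *Mmp* and *Adamts* TPM was 0.354 and 0.368 in ESC, then 0.147 and 0.133 (MES), 0.173 and 0.180 (CP) and 0.247 and 0.237 (CM). No stage overlapped with another in this ratio, which was lowest in MES. With the *Mmp* genes alone as the denominator the ratio was 0.527 and 0.553 in ESC, then 0.256 and 0.237 (MES), 0.368 and 0.417 (CP) and 0.423 and 0.415 (CM), so that MES was again lowest but CP and CM overlapped. With 2 libraries against 2, an exact permutation test cannot give a two-sided p under 0.333, so these sums are descriptions. In bulk RNA, a change in the number of cells of a type and a change in RNA per cell cannot be told apart.

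**Figure D1:**
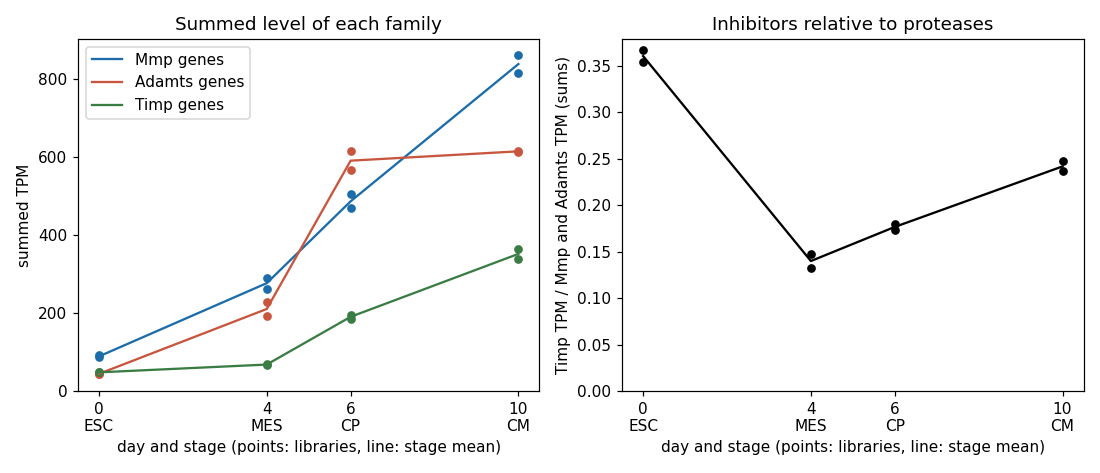
Summed TPM of the *Mmp*, *Adamts* and *Timp* genes (left) and the ratio of summed *Timp* TPM to summed *Mmp* and *Adamts* TPM (right) against day of differentiation, with points for the 8 libraries and lines through the stage means. *Mmp* sums reach 862 and 815 TPM in CM, while the ratio is lowest in MES, at 0.147 and 0.133.

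Of the 45 members, 40 had a count in at least 1 library, 35 passed the filter and were tested (13 *Mmp*, 18 *Adamts* and 4 *Timp*), and 34 were called in at least 1 of 4 comparisons. In MES against ESC, 20 members were higher and 7 were lower, whereas 19.4% of all genes tested were called higher and 16.0% lower. In CP against MES, 17 were higher and 2 lower, beside 10.8% and 4.65% of all genes. In CM against CP, 5 were higher and 1 lower, beside 8.17% and 2.65% of all genes. In CM against ESC, 27 were higher and 4 lower, beside 29.8% and 21.8% of all genes. The median log2 fold change of the tested members was 1.61 in MES against ESC, 1.13 in CP against MES, 0.34 in CM against CP and 3.16 in CM against ESC. Over all genes tested it was between 0.00 and 0.11 in these comparisons. In CP against MES, 1 member was lower without MES replicate 1 and likewise without CP replicate 2, and in CM against CP, 3 members were higher without CP replicate 2. Without both CM libraries, an alternative chosen after the data were seen, 20 were higher and 7 lower in MES against ESC, and 17 were higher and 3 lower in CP against MES. A member enters the test only where some stage reaches the filter, so the counts describe the tested members and not all 45.

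**Figure D2:**
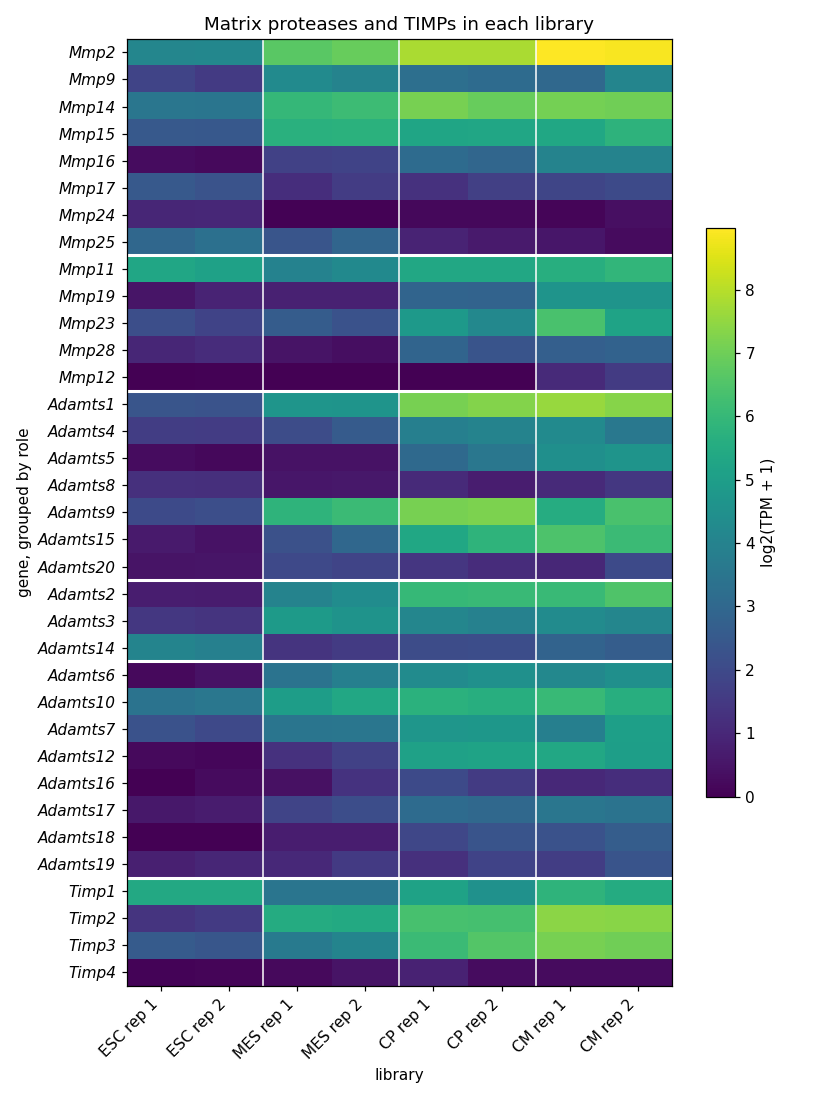
Level of the 35 tested members in each of the 8 libraries, as log2(TPM + 1) by colour, with genes in rows grouped by role and libraries in columns in the order of the stages. *Mmp2* in CM is the brightest row, and *Mmp24*, *Mmp25*, *Mmp17* and *Adamts14* are brighter in ESC than in the later stages.

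The members with no count in any library were *Mmp1b*, *Mmp3*, *Mmp7*, *Mmp8* and *Mmp27*. All of these lie in a cluster of 9 *Mmp* genes on chromosome 9 (chr9:7272514-7699585 of GRCm38), together with *Mmp10*, *Mmp12*, *Mmp13* and *Mmp20*. The cluster holds the collagenases *Mmp1b*, *Mmp8* and *Mmp13*, the stromelysins *Mmp3* and *Mmp10*, the matrilysin *Mmp7*, the macrophage elastase *Mmp12* and the tooth enamel protease *Mmp20*. Even its most counted gene, *Mmp12*, had 102 counts over all 8 libraries. *Mmp10* had no count in ESC, MES or CP and 4 and 9 counts in CM, or at least 4.34 times the level of ESC where a stage without counts is set to 3 counts in its 2 libraries together. *Mmp13* had no count in ESC, then 1 and 2 (MES), 0 and 1 (CP) and 7 and 3 counts (CM). *Mmp20* had 0 and 2 counts in ESC and none later. A count of 0 in a stage allows up to 3 counts there, so low levels of these genes were not detectable at this depth. Intervals and floors cover counting error only. Folds given with them, here and below, are ratios of counts over library totals, without the scaling of edgeR's fit. An adjusted p beside such a fold is from that fit, whose own fold can differ. For *Mmp12* in CM against ESC the fitted fold was 70.4, beside a count ratio of 101. A fold given as at least a value, here and below, takes the counts of the other stage as exact and leaves out their counting error.

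The start regions of the cluster also differed in sequence from those of the other members that could be compared. RefSeq promoters of GRCm38.p6, from 250 bases before to 50 bases after a gene's start, were found for 31 members, all 9 of the cluster and 22 others, with the first listed start used where a gene had several. No promoter was found for the other 14 members, among them *Mmp2* and *Mmp9*, so they are not part of this contrast. The motif TGANTCA is a looser form of TGACTCA and its reverse TGAGTCA, the site of the AP-1 factors Fos and Jun known from MMP promoters. It was found on either strand in 6 of the 9 cluster promoters and in none of the 22 others. Of the promoters of 27025 genes, 7.93% had it. The match in *Mmp20* was TGAATCA. Other variants, such as TGAGTAA in the *Timp1* promoter below, are not matched by this motif. The motif TATAAA, searched on both strands, was in 7 of the 9 and 2 of the 22, beside 14.2% of all promoters. The GC box GGGCGG, also searched on both strands, was in none of the 9 and 17 of the 22, beside 35.9% of all promoters. The motifs can touch or overlap each other where their letters allow it. The GC content was between 37.7% and 46.7% in the cluster and between 53.3% and 80.0% in the others, beside a median of 52.7%. Promoters of *Mmp3* and *Mmp10* from the cluster and of the abundant *Mmp14*, *Adamts1*, *Timp1* and *Timp2* are given here to show this contrast, each 5′ to 3′ along its gene, with matches to these motifs on either strand in capitals. A match is a description of the letters and not a measured site.
Mmp3 (chr9:7445572-7445871, plus strand): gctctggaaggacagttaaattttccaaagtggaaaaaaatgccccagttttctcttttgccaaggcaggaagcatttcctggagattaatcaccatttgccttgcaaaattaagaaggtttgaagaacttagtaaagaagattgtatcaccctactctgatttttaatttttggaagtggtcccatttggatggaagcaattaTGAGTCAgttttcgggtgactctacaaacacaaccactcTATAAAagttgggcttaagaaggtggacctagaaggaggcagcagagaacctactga
Mmp10 (chr9:7502092-7502391, plus strand): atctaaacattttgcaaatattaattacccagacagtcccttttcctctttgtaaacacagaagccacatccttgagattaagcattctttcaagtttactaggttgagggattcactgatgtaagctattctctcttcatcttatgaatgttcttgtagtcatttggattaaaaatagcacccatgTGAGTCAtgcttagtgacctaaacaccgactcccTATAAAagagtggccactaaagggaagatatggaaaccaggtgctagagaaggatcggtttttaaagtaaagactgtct
Mmp14 (chr14:54431348-54431647, plus strand): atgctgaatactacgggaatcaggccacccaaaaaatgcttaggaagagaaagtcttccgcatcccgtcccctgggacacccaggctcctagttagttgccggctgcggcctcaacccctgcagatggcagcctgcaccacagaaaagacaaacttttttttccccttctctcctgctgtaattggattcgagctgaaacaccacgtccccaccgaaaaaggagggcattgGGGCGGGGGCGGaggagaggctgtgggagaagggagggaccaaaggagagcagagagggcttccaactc
Adamts1 (chr16:85803064-85803363, minus strand): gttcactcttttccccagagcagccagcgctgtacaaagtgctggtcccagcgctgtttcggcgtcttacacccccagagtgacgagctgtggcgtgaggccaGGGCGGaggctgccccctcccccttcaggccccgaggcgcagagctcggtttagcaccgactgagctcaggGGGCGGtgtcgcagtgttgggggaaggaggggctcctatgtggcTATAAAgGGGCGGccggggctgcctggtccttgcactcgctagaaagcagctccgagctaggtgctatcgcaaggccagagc
Timp1 (chrX:20869916-20870215, plus strand): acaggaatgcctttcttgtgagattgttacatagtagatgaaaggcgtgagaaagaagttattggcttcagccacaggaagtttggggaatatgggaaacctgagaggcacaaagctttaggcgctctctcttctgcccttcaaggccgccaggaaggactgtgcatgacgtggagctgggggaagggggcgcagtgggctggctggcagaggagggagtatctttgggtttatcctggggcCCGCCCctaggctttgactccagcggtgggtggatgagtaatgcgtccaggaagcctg
Timp2 (chr11:118355362-118355661, minus strand): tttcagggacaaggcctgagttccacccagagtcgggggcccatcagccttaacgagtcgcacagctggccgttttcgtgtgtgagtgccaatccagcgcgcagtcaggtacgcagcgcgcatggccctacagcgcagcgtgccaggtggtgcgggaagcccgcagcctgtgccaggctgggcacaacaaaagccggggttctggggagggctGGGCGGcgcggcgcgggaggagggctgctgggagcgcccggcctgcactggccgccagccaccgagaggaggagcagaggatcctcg
In *Mmp3* and *Mmp10* the AP-1 letters began at positions -46 and -63, where 0 is the annotated start, and TATAAA at -7 and -29. The GC boxes of *Mmp14* began at -19 and -13. The GC box did not by itself go with a high level, as *Mmp24* had 3 GC boxes and at most 0.993 TPM in any library. *Adamts12* had none of the motifs and up to 41.0 TPM, and *Mmp27*, also with none of them, had no count. *Mmp24*, *Adamts12* and *Mmp27* were chosen after their values were seen. The 6 members with TGANTCA had at most 14 counts each over all 8 libraries. Of the 9 members with TATAAA, only *Adamts1* had more than 22 counts, with up to 193 TPM.

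The gelatinase *Mmp2* and the membrane-type proteases *Mmp14*, *Mmp15* and *Mmp16* rose in MES, while the membrane-bound *Mmp17*, *Mmp24* and *Mmp25* were highest in ESC. *Mmp2*, which cuts denatured collagen and basement membrane (chr8:92827291-92853420), was the most abundant member at every stage after ESC. *Mmp2* had 16.5 and 16.8 TPM in ESC, then 102 and 118 (MES), 227 and 227 (CP) and 499.6 and 470.3 (CM). Its log2 fold change was 2.51 (SE 0.11, adjusted p = 1.26e-07) in MES against ESC and 4.43 (SE 0.12, adjusted p = 6.78e-09) in CM against ESC, a 21.5-fold rise. The groups did not overlap at any step. In CM against CP its log2 fold change was 1.03 (adjusted p = 0.000212), a call that was lost without CP replicate 2 (0.99, adjusted p = 0.00455) and without CM replicate 1 (0.88, adjusted p = 7.83e-06), where it stayed above 0 but under the fold threshold.

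*Mmp14*, also called MT1-MMP, cuts fibrillar collagen at the cell surface and activates the precursor of MMP2 with the help of TIMP2. *Mmp14* had 10.5 and 10.1 TPM in ESC, then 62.3 and 70.3 (MES), 140.2 and 117 (CP) and 136 and 128 (CM). It rose 5.54-fold in MES against ESC, with a log2 fold change of 2.47 (SE 0.14, adjusted p = 4.51e-07). The log2 fold change was 0.80 (adjusted p = 0.001) in CP against MES, under the fold threshold, and -0.04 (adjusted p = 0.87) in CM against CP. All later libraries were above both ESC libraries. The partner *Timp2* did not move in step with it, as the ratio of *Timp2* TPM to *Mmp14* TPM was 0.145 and 0.189 in ESC, then 0.727 and 0.603 (MES), 0.577 and 0.680 (CP) and 1.24 and 1.29 (CM). There was thus more *Timp2* than *Mmp14* RNA only in the CM libraries.

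*Mmp15* (MT2-MMP) had 4.67 and 4.51 TPM in ESC, then 51.0 and 52.5 (MES), 37.2 and 38.5 (CP) and 39.3 and 54.7 (CM). It rose 9.73-fold in MES against ESC (log2 fold change 3.28, SE 0.13, adjusted p = 5.79e-08), and its log2 fold change in CP against MES was -0.61 (adjusted p = 0.00239), which did not pass the fold threshold. *Mmp16* (MT3-MMP) had 0.228 and 0.172 TPM in ESC, then 2.30 and 2.45 (MES), 7.86 and 6.74 (CP) and 15.1 and 15.1 (CM). Each later stage of *Mmp16* lay above the one before it, with log2 fold changes of 3.34 (SE 0.25, adjusted p = 3.5e-06) in MES against ESC and 1.46 (SE 0.17, adjusted p = 0.000249) in CP against MES. Its log2 fold change of 0.98 (adjusted p = 0.00243) in CM against CP lay just under the fold threshold and was called without CP replicate 1 (1.11, adjusted p = 0.0154) and without CM replicate 2 (1.06, adjusted p = 0.00052).

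The gelatinase *Mmp9*, known from blood and endothelial cells and from invading tissue, had 2.54 and 1.89 TPM in ESC, then 18.4 and 15.3 (MES), 8.70 and 7.82 (CP) and 7.09 and 15.9 (CM). It was highest in MES and in CM replicate 2, and it rose 6.55-fold in MES against ESC (log2 fold change 2.71, SE 0.34, adjusted p = 9.93e-05). The CP libraries were below both MES libraries, with a log2 fold change of -1.18 (adjusted p = 0.0134) in CP against MES. This call was lost without MES replicate 1 (-0.99, adjusted p = 0.108), without CP replicate 1 (-1.29, adjusted p = 0.0552), without CP replicate 2 (-1.09, adjusted p = 0.0955) and with limma on log2(TPM + 1) (-0.94, adjusted p = 0.0655) or log2(TPM + 0.1) (-1.01, adjusted p = 0.0749). The CM replicates differed by more than any other pair of replicates of this gene.

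*Mmp25*, anchored by a lipid in the membrane and known from white blood cells, had 7.06 and 8.80 TPM in ESC, then 4.15 and 6.60 (MES), 0.840 and 0.571 (CP) and 0.458 and 0.212 (CM). Its main fall came in CP against MES, with a log2 fold change of -3.07 (SE 0.37, adjusted p = 0.000262), and it was 30.9-fold lower in CM than in ESC (log2 fold change -4.95, adjusted p = 2.97e-06). In MES against ESC its log2 fold change was -0.78 (adjusted p = 0.0465), which was called only without MES replicate 2 (-1.10, adjusted p = 0.0402). *Mmp17*, the other lipid-anchored MMP, had 4.65 and 3.90 TPM in ESC, then 1.23 and 2.05 (MES), 1.44 and 2.25 (CP) and 2.69 and 3.02 (CM). It fell by 3.02-fold in MES against ESC (log2 fold change -1.60, SE 0.29, adjusted p = 0.0011), and no later library reached the ESC level. Its call in CM against ESC, at a log2 fold change of -1.03 (adjusted p = 0.00766), was lost without ESC replicate 1 (-0.86, adjusted p = 0.0641), with library totals (-0.80, adjusted p = 0.029), with no filter (-0.99, adjusted p = 0.0109) and with limma on log2(TPM + 1) (-0.45, adjusted p = 0.117) or log2(TPM + 0.1) (-0.56, adjusted p = 0.193). *Mmp24* (MT5-MMP), known from neurons, had 0.960 and 0.993 TPM in ESC, then 0.0447 and 0.0445 (MES), 0.136 and 0.139 (CP) and 0.0864 and 0.288 (CM). With 50 counts in ESC and 2 in MES, it was 23.9-fold lower in MES (95% counting interval 6.27 to 203, adjusted p = 0.000296 from edgeR's test). The markers of white blood cells summed to 503 and 544 TPM in CM, where *Mmp25* was lowest, and 42.2 and 38.1 TPM in ESC, where *Mmp25* was highest and *Cd68* alone had 41.6 and 37.1 TPM.

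Of the other MMPs, *Mmp11* and *Mmp28* dipped in MES, and *Mmp19*, *Mmp23* and *Mmp12* were highest in CM. *Mmp11*, stromelysin-3, is activated inside the cell by furin and was the most abundant MMP of ESC, with 42.3% and 39.6% of the summed *Mmp* TPM there. *Mmp11* had 38.7 and 34.1 TPM in ESC, then 14.7 and 18.0 (MES), 40.1 and 40.8 (CP) and 47.8 and 58.5 (CM). By edgeR its log2 fold change was -1.37 (SE 0.13, adjusted p = 1.77e-05) in MES against ESC, 1.15 (SE 0.13, adjusted p = 0.000204) in CP against MES and 0.10 (adjusted p = 0.494) in CM against ESC. Both MES libraries were below all others. *Mmp28* (epilysin) had 0.929 and 1.20 TPM in ESC, then 0.379 and 0.269 (MES), 6.46 and 4.08 (CP) and 5.64 and 6.09 (CM). The fitted log2 fold change was -1.90 (adjusted p = 0.00524) in MES against ESC and 3.85 (SE 0.40, adjusted p = 0.000119) in CP against MES, with both MES libraries again the lowest.

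*Mmp19*, a secreted protease of vessel walls and skin, had 0.407 and 0.842 TPM in ESC, then 0.771 and 0.767 (MES), 6.49 and 6.18 (CP) and 23.8 and 24.1 (CM). Its log2 fold change was 2.87 (SE 0.30, adjusted p = 0.000113) in CP against MES and 1.85 (SE 0.23, adjusted p = 0.00061) in CM against CP, whereas in MES against ESC it was 0.09 (adjusted p = 0.855). The ESC and MES libraries overlapped, and each later stage lay above the one before it. *Mmp23*, a membrane protein that is released when furin-like enzymes cut it, had 3.46 and 2.46 TPM in ESC, then 5.10 and 3.74 (MES), 28.0 and 17.0 (CP) and 82.5 and 35.7 (CM). Its level in CM was higher in replicate 1, which also had the higher sum of smooth muscle and fibroblast markers (16523 against 10519.6 TPM in CM replicate 2). Of these markers, *Col1a1* had 8155 and 4539 TPM in CM. In contrast, *Acta2* (1398 and 1474 TPM), *Tagln* (371 and 577 TPM), *Cnn1* and *Thy1* were lower in CM replicate 1 than in replicate 2. The part of those cells in the difference was not tested. The log2 fold change of *Mmp23* was 2.19 (SE 0.48, adjusted p = 0.00605) in CP against MES, a call lost without MES replicate 2 (1.96, adjusted p = 0.0584). In CM against CP it was 1.35 (adjusted p = 0.0394), and leaving out any library other than CM replicate 2 removed the call, with log2 fold changes between 0.49 (adjusted p = 0.218, without CM replicate 1) and 1.77 (adjusted p = 0.0702, without CP replicate 1). The call was also lost with only CM and CP in the fit (1.38, adjusted p = 0.106) and with limma on log2(TPM + 1) (1.28, adjusted p = 0.0617) or log2(TPM + 0.1) (1.31, adjusted p = 0.0765).

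*Mmp12*, the elastase of macrophages, was almost confined to CM among these libraries. It had 0 and 1 count in ESC, none in MES or CP, and 39 and 62 counts in CM, which corresponds to 1.09 and 1.92 TPM in CM. Its level in CM was at least 33.5-fold that in CP (with CP at the same floor, adjusted p = 0.00131 from edgeR's test) and 101-fold higher in CM than in ESC (95% counting interval 17.7 to 4031, adjusted p = 0.000261). All 10 markers of macrophages and other white blood cells also rose in CM against CP, beside 8.17% of all genes tested. Among them, *Csf1r*, the receptor for the macrophage growth factor, had 76.6 and 70.2 TPM in CM and 4.26 and 4.83 TPM in CP, and *C1qa*, a complement subunit made by macrophages, had 67.7 and 59.2 TPM in CM and 0.612 and 0.208 TPM in CP. In ESC and in MES, 5 of the 10 markers had no count at all, and none was without counts in CP or CM. The part of these cells in the rise of *Mmp12* was not tested.

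**Figure D3:**
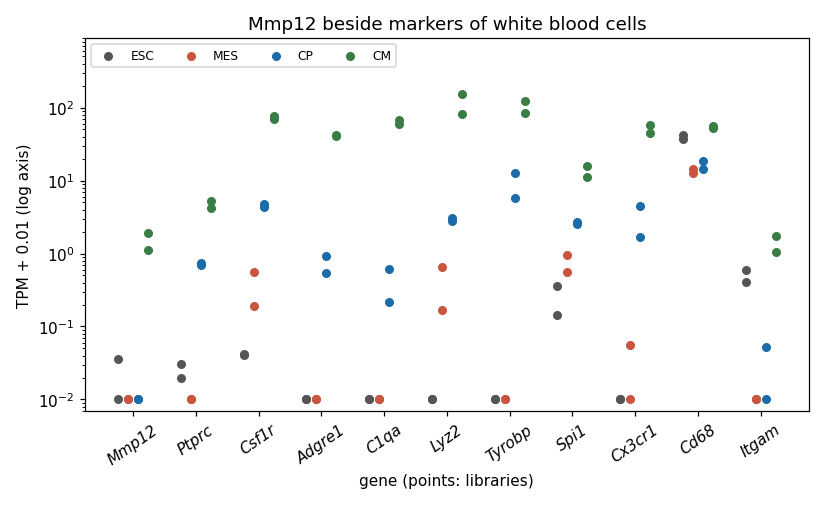
TPM + 0.01 on a log axis for *Mmp12* and the 10 markers of macrophages and other white blood cells, with a point for each library, coloured by stage. *Mmp12* has 1.09 and 1.92 TPM in CM and lies at the floor of the axis in MES and CP, while *Csf1r* reaches 76.6 and 70.2 TPM in CM.

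*Mmp21*, which is needed for the left-right asymmetry of the embryo, had 14 and 5 counts in ESC, then none (MES), 2 and 1 (CP) and none (CM). It was at least 6.05-fold lower in MES than in ESC and at least 6.33-fold lower in CM than in ESC, with the same floor, and was too low for the test.

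Among the proteases of the proteoglycan-cutting branch, *Adamts1*, *Adamts9*, *Adamts15* and *Adamts20* rose in MES, *Adamts4* and *Adamts5* first rose in CP, and *Adamts8* fell in MES. *Adamts1*, which cuts versican and is known from the shaping of the ventricular wall in mice (chr16:85793827-85803113), had 4.21 and 3.93 TPM in ESC, then 24.9 and 24.2 (MES), 138 and 156 (CP) and 193 and 160.1 (CM). The log2 fold change was 2.38 (SE 0.16, adjusted p = 1.75e-06) in MES against ESC and 2.42 (SE 0.14, adjusted p = 6.6e-06) in CP against MES. Its log2 fold change in CM against CP was 0.20 (adjusted p = 0.302), and it was 32.2-fold higher in CM than in ESC. *Adamts5*, the main aggrecan-cutting enzyme of mouse cartilage and a versican protease of heart valves, lies 53.1 kb from *Adamts1* on the same strand. It had 0.217 and 0.138 TPM in ESC, then 0.350 and 0.367 (MES), 7.36 and 10.7 (CP) and 21.1 and 23.8 (CM). Both neighbours rose in CP against MES, but only *Adamts1* was called in MES against ESC and only *Adamts5* in CM against CP. The log2 fold change of *Adamts5* was 0.79 (adjusted p = 0.0938) in MES against ESC. It was 4.49 (SE 0.24, adjusted p = 4.25e-06) in CP against MES and 1.24 (SE 0.17, adjusted p = 0.001) in CM against CP.

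*Adamts9*, a versican protease that is also needed for heart development in mice, had 3.08 and 3.44 TPM in ESC, then 56.1 and 68.5 (MES), 137 and 145 (CP) and 46.2 and 82.2 (CM). It was the most abundant *Adamts* gene in MES, with 29.1% and 30.0% of the summed *Adamts* TPM. By edgeR its log2 fold change was 4.04 (SE 0.21, adjusted p = 2.95e-07) in MES against ESC, 1.02 (adjusted p = 0.00188) in CP against MES and -1.23 (SE 0.18, adjusted p = 0.00135) in CM against CP. It was the only member called lower in CM than in CP. This call was lost without CM replicate 1 (-0.95, adjusted p = 1.84e-05), and that in CP against MES without MES replicate 1 (0.94, adjusted p = 0.0279). CM replicate 1, the lower of the CM pair, also had the lower sum of cardiomyocyte markers (542 against 1459 TPM in CM replicate 2), whose part was not tested.

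*Adamts15*, a further versican protease, had 0.556 and 0.359 TPM in ESC, then 3.68 and 6.94 (MES), 39.7 and 55.7 (CP) and 86.2 and 67.4 (CM). The fitted log2 fold change was 3.31 (SE 0.40, adjusted p = 8.37e-05) in MES against ESC and 3.01 (SE 0.28, adjusted p = 7.25e-05) in CP against MES, and it was 124-fold higher in CM than in ESC. *Adamts8* starts 20.1 kb away on the opposite strand. It had 1.36 and 1.29 TPM in ESC, then 0.454 and 0.497 (MES), 1.10 and 0.656 (CP) and 1.10 and 1.75 (CM). It fell in MES against ESC (log2 fold change -1.68, SE 0.41, adjusted p = 0.00584) while its neighbour rose. *Adamts4*, an aggrecan-cutting enzyme, had 2.06 and 2.01 TPM in ESC, then 3.27 and 5.02 (MES), 13.6 and 15.0 (CP) and 18.6 and 11.1 (CM), and rose in CP against MES (log2 fold change 1.63, SE 0.30, adjusted p = 0.00268). In MES against ESC its log2 fold change of 0.81 (adjusted p = 0.0611) was called only without MES replicate 1 (1.07, adjusted p = 0.0463). *Adamts20*, the closest relative of *Adamts9* and the gene of the belted coat mutation, had 0.380 and 0.434 TPM in ESC, then 2.91 and 2.59 (MES), 1.70 and 1.20 (CP) and 0.989 and 3.05 (CM). Both MES libraries were at or above 2.59 TPM, against at most 0.434 TPM in ESC, a log2 fold change of 2.54 (adjusted p = 0.00115). In CP against MES its log2 fold change was -1.08 (adjusted p = 0.0673), which was called without CM replicate 1 (-1.08, adjusted p = 0.00233) or CM replicate 2 (-1.08, adjusted p = 0.00295). Its call in CM against ESC (log2 fold change 1.82, adjusted p = 0.00593) was lost without CM replicate 2 (0.93, adjusted p = 0.0413).

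The procollagen N-proteinases, which trim the amino end of fibrillar procollagens, changed places. *Adamts14* was the most abundant *Adamts* gene of ESC, with 34.7% and 31.7% of the summed *Adamts* TPM, and it fell in MES, while *Adamts2* and *Adamts3* rose there. *Adamts14* had 15.6 and 13.8 TPM in ESC, then 1.57 and 1.92 (MES), 3.23 and 3.37 (CP) and 6.15 and 5.19 (CM). Its log2 fold change was -3.28 (SE 0.22, adjusted p = 1.45e-06) in MES against ESC and -1.80 (adjusted p = 2.14e-05) in CM against ESC, with every later library below both ESC libraries. *Adamts2*, whose loss causes fragile skin in cattle and people, had 0.636 and 0.617 TPM in ESC, then 14.9 and 19.7 (MES), 63.8 and 66.3 (CP) and 66.9 and 90.1 (CM). It rose 23.7-fold in MES against ESC (log2 fold change 4.57, SE 0.18, adjusted p = 5.66e-08) and again in CP against MES (log2 fold change 1.76, SE 0.13, adjusted p = 1.95e-05). *Adamts3*, which also helps to activate the lymphatic growth factor VEGF-C, had 1.76 and 1.54 TPM in ESC, then 28.2 and 23.6 (MES), 16.2 and 14.3 (CP) and 19.1 and 16.2 (CM). It was highest in MES, with a log2 fold change of 3.76 (SE 0.21, adjusted p = 5.25e-07) against ESC. Its log2 fold change of -0.93 (adjusted p = 0.00305) in CP against MES did not pass the fold threshold, but was called without MES replicate 2 (-1.08, adjusted p = 0.0079) and without CP replicate 1 (-1.05, adjusted p = 0.0143).

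*Adamts6* and *Adamts10*, relatives that act on fibrillin microfibrils, both rose in MES against ESC and were called at no later step. *Adamts6* had 0.185 and 0.358 TPM in ESC, then 9.78 and 13.5 (MES), 19.0 and 21.7 (CP) and 17.3 and 20.9 (CM), with a log2 fold change of 5.20 (SE 0.26, adjusted p = 2.19e-07) in MES against ESC. *Adamts10*, mutated in a human syndrome of short stature and eye disease, had 9.70 and 10.9 TPM in ESC, then 30.7 and 40.7 (MES), 51.5 and 48.0 (CP) and 65.0 and 48.7 (CM), with a log2 fold change of 1.58 (SE 0.19, adjusted p = 8.45e-05). *Adamts12*, which cuts cartilage oligomeric matrix protein, had 0.165 and 0.119 TPM in ESC, then 1.40 and 2.37 (MES), 33.9 and 35.8 (CP) and 41.0 and 31.4 (CM). The log2 fold change was 3.49 (SE 0.41, adjusted p = 6.65e-05) in MES against ESC and 4.05 (SE 0.24, adjusted p = 7.03e-06) in CP against MES, and in CM it was 187-fold higher than in ESC. *Adamts7*, its closest relative, had 3.75 and 2.93 TPM in ESC, then 10.1 and 10.6 (MES), 25.0 and 25.5 (CP) and 13.7 and 32.8 (CM). It rose in MES against ESC (log2 fold change 1.42, SE 0.31, adjusted p = 0.00343). The call of *Adamts7* in CP against MES (log2 fold change 1.13, adjusted p = 0.0126) was lost when any of the MES or CP libraries was left out, with adjusted p between 0.0564 and 0.081.

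*Adamts17* and *Adamts18* rose at the first steps, whereas *Adamts16* and *Adamts19* had low and uneven counts. *Adamts17*, which is mutated in a human syndrome like that of ADAMTS10, had 0.487 and 0.599 TPM in ESC, then 2.62 and 3.35 (MES), 7.71 and 7.08 (CP) and 10.4 and 9.60 (CM), and rose in MES against ESC (log2 fold change 2.24, SE 0.24, adjusted p = 3.47e-05) and in CP against MES (log2 fold change 1.15, adjusted p = 0.00162). *Adamts18*, known from mouse organ branching, had 0 and 0.0183 TPM in ESC, then 0.638 and 0.655 (MES), 2.75 and 4.0 (CP) and 3.80 and 5.23 (CM). With 1 count in ESC it was 66.0-fold higher in MES than in ESC (95% counting interval 11.4 to 2646, adjusted p = 6.08e-05 from edgeR's test) and rose again in CP against MES (log2 fold change 2.22, SE 0.29, adjusted p = 0.000404). *Adamts16* had 0 and 0.190 TPM in ESC, then 0.307 and 1.49 (MES), 3.07 and 1.93 (CP) and 1.07 and 1.28 (CM), and its MES replicates differed the most. Its call in MES against ESC (log2 fold change 3.0, adjusted p = 0.0233) was lost without ESC replicate 1 (2.01, adjusted p = 0.124) and without MES replicate 2 (1.51, adjusted p = 0.285). Its call in CM against ESC (log2 fold change 3.16, adjusted p = 0.0129) was lost without ESC replicate 1 (2.19, adjusted p = 0.0743). Without MES replicate 2, CP against MES was called (2.83, adjusted p = 0.0368), which it was not with all libraries (log2 fold change 1.33, adjusted p = 0.143). *Adamts19*, linked to heart valve disease in people, had 0.718 and 0.940 TPM in ESC, then 1.03 and 1.88 (MES), 1.38 and 2.46 (CP) and 2.06 and 4.02 (CM), with a call only in CM against ESC (log2 fold change 1.41, adjusted p = 0.00799) that was lost without ESC replicate 1 (1.26, adjusted p = 0.0617) and without CM replicate 2 (0.96, adjusted p = 0.0336). *Adamts13*, which cuts von Willebrand factor in the blood, was too low for the test. It had no count in ESC or MES, 2 and 6 counts in CP and 10 and 23 in CM, a level in CM at least 11.0-fold that in ESC.

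**Figure D4:**
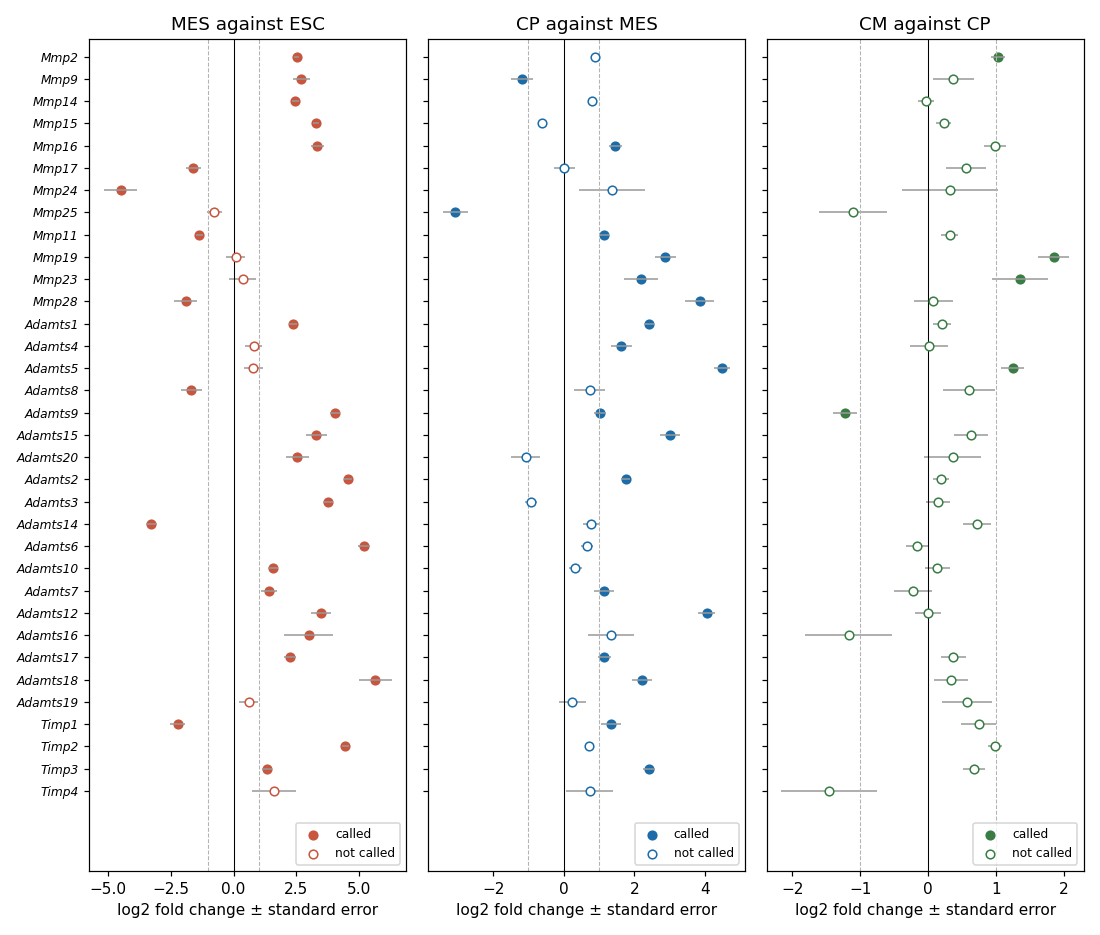
Log2 fold change with its standard error for 34 tested members (*Mmp12*, with no count in MES and CP, is left out) in MES against ESC, CP against MES and CM against CP, with filled points for called genes, open points for genes that were not called and dashed lines at a fold of 2 and 0.5, each panel with its own horizontal scale. The first 2 panels hold 27 and 19 called members and the last holds 5 of the 6 called, among them *Adamts9* as the only one below 0.

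The inhibitors changed in make-up as well as in amount. In ESC, *Timp1* gave 86.4% and 86.9% of the summed *Timp* TPM, in MES *Timp2* gave 67.4% and 61.6%, and in CP and CM both *Timp2* and *Timp3* were above *Timp1* in every library. *Timp1*, a secreted inhibitor with a weak effect on the membrane-type MMPs (chrX:20870166-20874735), had 41.7 and 41.5 TPM in ESC, then 10.1 and 10.3 (MES), 35.1 and 22.4 (CP) and 55.8 and 44.8 (CM). It fell by 4.69-fold in MES against ESC, with a log2 fold change of -2.23 (SE 0.28, adjusted p = 0.000115), and the MES libraries were below all others. Its rise in CP against MES (log2 fold change 1.34, SE 0.29, adjusted p = 0.00583) was lost without CP replicate 1 (0.95, adjusted p = 0.0487). In CM against ESC its log2 fold change was -0.15 (adjusted p = 0.597), and 0.06 where the libraries were scaled by their totals alone, so its sign there depends on the scaling. In CM against CP it was 0.74 (adjusted p = 0.064), which was called without CP replicate 1 (1.12, adjusted p = 0.0427).

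*Timp2*, which both inhibits MMPs and serves MMP14 as a bridge to the MMP2 precursor (chr11:118301069-118355740), had 1.52 and 1.91 TPM in ESC, then 45.3 and 42.4 (MES), 80.9 and 79.8 (CP) and 168 and 164 (CM). It had the largest log2 fold change of the inhibitors in MES against ESC, 4.46 (SE 0.15, adjusted p = 2.49e-08), and was 71.5-fold higher in CM than in ESC. Each later stage lay above the one before it with no overlap. In CM against CP its log2 fold change of 0.98 (adjusted p = 0.000333) lay just under the threshold, and was called without CP replicate 1 (1.00, adjusted p = 0.00632) and without CM replicate 2 (1.08, adjusted p = 6.6e-06). *Timp3*, which stays bound to the matrix and also inhibits ADAM17 and several ADAMTS proteases (chr10:86300372-86349506), had 4.99 and 4.27 TPM in ESC, then 11.6 and 15.7 (MES), 68.7 and 92.9 (CP) and 141 and 129 (CM). By edgeR its log2 fold change was 1.34 (SE 0.19, adjusted p = 0.000228) in MES against ESC and 2.41 (SE 0.18, adjusted p = 2.15e-05) in CP against MES, so its larger step came later than that of *Timp2*. *Timp4*, known from adult heart muscle, had 0.0610 and 0.0946 TPM in ESC, then 0.178 and 0.389 (MES), 0.828 and 0.220 (CP) and 0.206 and 0.191 (CM). It had between 2 and 23 counts in a library and was called in no comparison, with a log2 fold change of 0.89 (SE 0.94, adjusted p = 0.413) in CM against ESC.

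**Figure D5:**
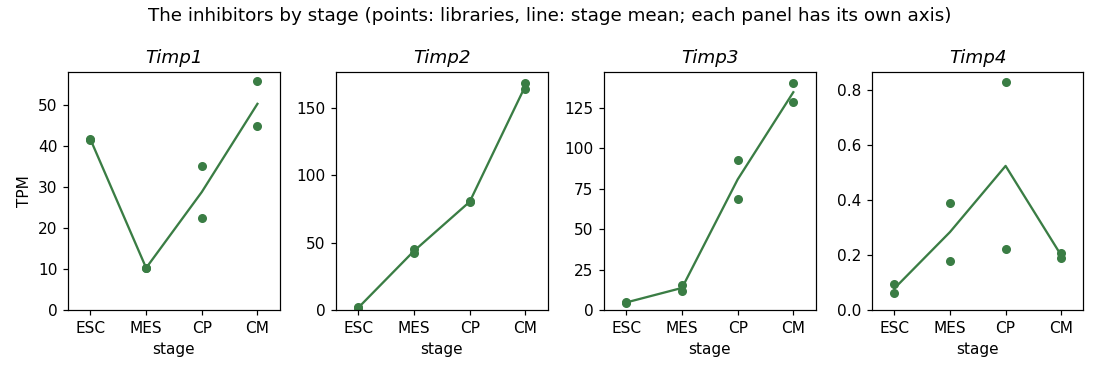
TPM of *Timp1*, *Timp2*, *Timp3* and *Timp4* by stage in panels with separate axes, with points for libraries and lines through the stage means. *Timp1* is lowest in MES (10.1 and 10.3 TPM), *Timp2* is highest in CM (168 and 164 TPM), as is *Timp3* (141 and 129 TPM), and *Timp4* stays under 1 TPM.

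By position, *Timp1*, *Timp3* and *Timp4* lie inside the synapsin genes *Syn1*, *Syn3* and *Syn2* on the opposite strand in the GENCODE M21 annotation, and the reads were counted by strand. Of the 45 members, 21 overlap a gene on the opposite strand. On the same strand, the small gene *Cep295nl* lies within *Timp2* and the pseudogene *Gm17909* within *Adamts17*, with at most 11.6 and 0.743 TPM in any library, and reads in the shared parts are uncertain.

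Genes that activate, inhibit or are cut by these proteases were counted in lists by their role. In MES against ESC, 19.4% of all genes tested were called higher and 16.0% lower. Of 4 proprotein convertases, which remove the inhibitory domain of furin-activated MMPs and of ADAMTS proteases, *Furin* and *Pcsk5* rose and *Pcsk6* fell in MES against ESC. *Furin* had 8.88 and 8.33 TPM in ESC, then 45.5 and 48.4 (MES), 103 and 100.1 (CP) and 111 and 142 (CM), a log2 fold change of 2.24 (SE 0.10, adjusted p = 1.12e-07) in MES against ESC. *Pcsk6* had 26.4 and 27.8 TPM in ESC, then 4.28 and 3.33 (MES), 1.43 and 1.92 (CP) and 3.82 and 3.81 (CM), a log2 fold change of -3.04 (SE 0.19, adjusted p = 9.78e-07). *Plau*, the urokinase-type activator of plasminogen, had 0.608 and 0.864 TPM in ESC, then 12.2 and 12.0 (MES), 47.9 and 39.7 (CP) and 126 and 109 (CM), and was highest in CM.

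Of 5 other regulators, *Reck*, a membrane-anchored inhibitor of MMPs, *Lrp1*, the receptor that clears proteases and TIMPs from the cell surface, and *Tfpi2* rose in MES against ESC and *A2m* fell. *Reck* had 11.5 and 11.0 TPM in ESC, then 47.0 and 56.0 (MES), 92.5 and 87.9 (CP) and 76.2 and 63.6 (CM), and *Lrp1* had 31.8 and 33.5 TPM in ESC, then 145 and 155 (MES), 228 and 249.7 (CP) and 269 and 282 (CM). The log2 fold change in MES against ESC was 1.98 (adjusted p = 3.67e-06) for *Reck* and 1.99 (adjusted p = 8.98e-08) for *Lrp1*. Of 7 proteoglycans and link proteins, *Vcan* (versican), *Hapln1* and *Hapln3* rose in MES against ESC and *Acan*, *Bcan* and *Ncan* fell. *Vcan* had 11.3 and 12.5 TPM in ESC, then 187 and 188 (MES), 289.9 and 336 (CP) and 159 and 279 (CM), a log2 fold change of 3.77 (SE 0.19, adjusted p = 2.9e-07) in MES against ESC. The link protein *Hapln1*, which ties versican to hyaluronan, had 0.0610 and 0 TPM in ESC, then 26.2 and 30.8 (MES), 54.8 and 72.6 (CP) and 9.60 and 20.7 (CM) and was the only gene of the list to fall in CM against CP, with a log2 fold change of -2.17 (SE 0.27, adjusted p = 0.000604).

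Of 7 ADAMTS-like proteins, which share the ADAMTS tail but lack the protease, 2 rose and 3 fell in MES against ESC. In each of CP against MES and CM against CP 5 rose, and all 7 were higher in CM than in ESC. Of all genes tested, 19.4% rose and 16.0% fell in MES against ESC. These shares were 10.8% and 4.65% in CP against MES and 8.17% and 2.65% in CM against CP, and 29.8% were higher in CM than in ESC. *Adamtsl1* fell in MES and rose afterwards, with 3.17 and 3.09 TPM in ESC, then 0.345 and 0.294 (MES), 12.0 and 14.3 (CP) and 43.6 and 29.8 (CM). *Thsd4*, also named *Adamtsl6*, had 0.193 and 0.213 TPM in ESC, then 1.62 and 2.43 (MES), 7.13 and 9.88 (CP) and 25.8 and 18.7 (CM). Of 9 ADAM proteases, 8 passed the filter and were tested. Of these 8, 4 rose in MES against ESC, 1 in CP against MES and 2 in CM against CP, and none fell. *Adam12*, an early marker of mesenchymal and muscle precursors, had 0.0851 and 0.0879 TPM in ESC, then 5.69 and 6.27 (MES), 49.1 and 59.5 (CP) and 56.1 and 56.3 (CM), and rose in MES against ESC (log2 fold change 5.87, SE 0.21, adjusted p = 4.22e-08) and in CP against MES (log2 fold change 3.02, SE 0.11, adjusted p = 1.83e-06). Of 5 astacin proteases, 3 passed the filter and were tested. *Bmp1*, the procollagen C-proteinase, had 2.19 and 2.52 TPM in ESC, then 32.5 and 33.2 (MES), 73.1 and 68.1 (CP) and 70.4 and 102 (CM). *Bmp1* rose in MES against ESC (log2 fold change 3.59, SE 0.15, adjusted p = 8.12e-08). *Mep1b* fell to 0.0798 and 0 TPM in MES, against 8.91 and 7.72 TPM in ESC. The marker list of smooth muscle and fibroblasts is given beside these, with 8 of 12 genes higher in MES than in ESC, 7 higher and 1 lower in CP than in MES, and 6 higher and 2 lower in CM than in CP, and a sum of 71.8 and 76.9 TPM in ESC, then 1289 and 1328 (MES), 8729.9 and 10093 (CP) and 16523 and 10519.6 (CM). Its part in the changes of the proteases and inhibitors was not tested.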

How the data were processed

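RNA of 8 libraries was measured, 2 for each of 4 stages. The authors trimmed reads with Trim Galore 0.6.6, aligned them to GRCm38 with HISAT2 2.2.1 and counted them per gene, by strand, with featureCounts 2.0.1. They deposited raw counts and TPM values, and the TPM were recomputed from the counts and gene lengths within 1e-05. The authors also name DESeq2 1.34.0, whose results were not used. Coordinates come from GENCODE M21, which held all 45 members.

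Counts were tested with edgeR 4.0.16 (R 4.3.3) on all 8 libraries in 1 fit, after filterByExpr and TMM scaling, with quasi-likelihood F-tests, Benjamini-Hochberg adjustment and contrasts of stages. The standard error (SE) was taken as the size of the log2 fold change over the root of its F value. Alternatives used DESeq2 1.42.0, limma 3.58.1, other scalings, no filter, 2 stages, the replicate block and leaving out each library. Members named are the 35 that passed the filter, and others are given by their counts. Counts of the list of plasminogen activators are not reported here. The members and lists were chosen with earlier results of these data known. The labels call the 2 libraries of a stage biological replicates, without saying whether they came from separate differentiations, so p-values measure the spread between these samples.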

Additional observations from a re-analysis of the deposited data

Results flagged for a closer look

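*Mmp1a* has a symbol of the same form as the members but is annotated as a polymorphic pseudogene, so it is not among the 45. It had no count in ESC, MES or CP and 16 and 6 counts in CM, 22 in all, or 1.60 and 0.666 TPM in CM. It lies in the same cluster on chromosome 9 and is a near relative of *Mmp1b*, which had no count, so the share of reads between these genes is uncertain.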

How the results depend on the processing

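Of 137 log2 fold changes of named members, 83 were called, 65 of these kept their call under all 17 alternatives and 18 lost it under at least 1, while 9 others became called and none changed sign while called. With limma on log2(TPM + 1), 4 members were lower in MES than in ESC (7 by edgeR), 1 in CP than in MES (2 by edgeR, and also 1 with limma on log2(TPM + 0.1)) and 2 in CM than in ESC (4 by edgeR). That pseudocount understates changes of low genes, and with it *Adamts8*, *Adamts16*, *Adamts18*, *Mmp24* and *Mmp28* lost their calls in MES against ESC, and *Adamts16* and *Mmp24* those in CM against ESC. Leaving out 1 library at a time gave 19 to 21 members higher and 7 to 9 lower in MES against ESC, 15 to 18 and 1 to 3 in CP against MES, 3 to 7 and 0 to 1 in CM against CP, and 25 to 28 and 3 to 5 in CM against ESC. The count of 0 came without CM replicate 1, where *Adamts9* stayed under the fold threshold (log2 fold change -0.95, adjusted p = 1.84e-05 by edgeR). Scaling by library totals moved the median over all genes by 0.22 on the log2 scale in CM against ESC. TPM and the family sums are not on the scale of the fit either. For example, *Mmp11* had means of 36.4 TPM in ESC and 53.2 TPM in CM, beside a fitted log2 fold change of 0.10. With the replicate number as a block, 20 and 7, 17 and 2, 5 and 1, and 27 and 4 members were higher and lower in these comparisons, as without it. Samples of the same number had deviations that correlated at 0.01 to 0.07, so the numbers were not taken as pairs. Depth limits genes with a few counts in a library, among them *Timp4*, *Adamts16* and *Mmp24*.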
